A study of Homo sapiens with 42 samples.

Results

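Trimethylation of histone H3 at lysine 9 (H3K9me3) was described in NCI-H1299, an established non-small cell lung cancer line, with and without induction of the embryonic factors DPPA2 and DPPA4. All 4 H3K9me3 libraries of this line were used, out of 42 samples in the series. They held 2 control replicates and 2 DOX replicates. The filtered islands, meaning broad stretches in which the immunoprecipitate was enriched over input, numbered 14489 and 21770 in control replicates 1 and 2 and 12301 and 23899 in DOX replicates 1 and 2. Every library came from the same NCI-H1299_DOVE cells, which carry N-terminally Flag-tagged DPPA2 and V5-tagged DPPA4 cDNAs under a tetracycline response element and were sorted by flow cytometry. The line does not normally express either factor, so the control cells carry the same transgenes uninduced. Control cells received H2O for 7 days and DOX cells received 2 µg/mL doxycycline for 7 days. The methods call the replicates independent and describe complete batches, but neither they nor the labels name separate cultures, so p-values measure the spread between these libraries. The comparison asked whether the repressive H3K9me3 landscape moved with DOX, which induces DPPA2 and DPPA4. No DOX-treated NCI-H1299 cells without the transgenes were in the series. Effects of doxycycline itself and of the induced factors therefore cannot be told apart. For its shRNA knockdowns, the study's methods describe a marked transcriptional response to doxycycline.

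H3K9me3 is written mainly by SETDB1, which is recruited to DNA by KRAB zinc finger proteins through their corepressor KAP1 (TRIM28), and by the SUV39H enzymes at pericentromeric repeats. It is read by HP1 proteins and marks compact, silent chromatin. KRAB zinc finger genes, which lie in clusters with the largest on chromosome 19, are themselves known to carry H3K9me3 over the exon that encodes their zinc finger arrays, often beside the elongation mark H3K36me3.

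Sequences from zinc finger genes and from a satellite are shown here, because the letters make the shared content visible. The first 4 lie in the last coding exon of a zinc finger gene, within bases under an island in all 4 libraries, and are given 5′ to 3′ on the coding strand. Capitals mark matches to a 14-base consensus for the DNA that encodes the linker between neighbouring zinc fingers. They are ZNF184 (hg38 chr6:27452447-27452746, minus strand), ZNF141 (chr4:373322-373621, plus strand), ZNF721 (chr4:443441-443740, minus strand) and ZKSCAN5 (chr7:99531241-99531540, plus strand).
ZNF184: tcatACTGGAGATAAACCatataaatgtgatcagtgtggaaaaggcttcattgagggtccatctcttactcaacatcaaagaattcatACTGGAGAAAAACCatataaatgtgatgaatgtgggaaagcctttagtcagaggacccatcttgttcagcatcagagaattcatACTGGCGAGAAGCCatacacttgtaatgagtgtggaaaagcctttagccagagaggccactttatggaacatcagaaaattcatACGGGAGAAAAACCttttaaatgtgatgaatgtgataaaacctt
ZNF141: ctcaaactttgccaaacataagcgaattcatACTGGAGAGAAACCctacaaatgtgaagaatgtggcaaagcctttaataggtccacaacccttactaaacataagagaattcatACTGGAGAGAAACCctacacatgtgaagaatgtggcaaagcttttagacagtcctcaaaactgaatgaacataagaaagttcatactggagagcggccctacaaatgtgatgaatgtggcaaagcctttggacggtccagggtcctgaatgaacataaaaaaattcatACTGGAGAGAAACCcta
ZNF721: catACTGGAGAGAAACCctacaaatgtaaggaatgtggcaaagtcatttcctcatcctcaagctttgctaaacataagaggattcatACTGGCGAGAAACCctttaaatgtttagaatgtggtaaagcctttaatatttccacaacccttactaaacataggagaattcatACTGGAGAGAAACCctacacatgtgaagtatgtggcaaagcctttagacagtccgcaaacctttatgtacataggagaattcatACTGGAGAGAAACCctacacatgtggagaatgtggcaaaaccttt
ZKSCAN5: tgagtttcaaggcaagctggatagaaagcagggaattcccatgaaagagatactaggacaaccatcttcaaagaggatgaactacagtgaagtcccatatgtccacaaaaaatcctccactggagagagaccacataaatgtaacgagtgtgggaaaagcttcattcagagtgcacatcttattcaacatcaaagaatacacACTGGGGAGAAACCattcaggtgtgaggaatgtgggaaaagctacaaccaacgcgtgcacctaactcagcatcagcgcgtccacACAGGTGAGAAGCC
The full last coding exons held 11 linker matches in 1955 bases of ZNF184, 5 in 1196 bases of ZNF141, 19 in 2735 bases of ZNF721 and 3 in 1139 bases of ZKSCAN5. The last sequence is an intergenic satellite stretch (chr20:31071601-31071900, plus strand) from the widest region, which had filtered islands in both DOX libraries and in neither control. GGAAT is in capitals.
Chromosome 20 satellite: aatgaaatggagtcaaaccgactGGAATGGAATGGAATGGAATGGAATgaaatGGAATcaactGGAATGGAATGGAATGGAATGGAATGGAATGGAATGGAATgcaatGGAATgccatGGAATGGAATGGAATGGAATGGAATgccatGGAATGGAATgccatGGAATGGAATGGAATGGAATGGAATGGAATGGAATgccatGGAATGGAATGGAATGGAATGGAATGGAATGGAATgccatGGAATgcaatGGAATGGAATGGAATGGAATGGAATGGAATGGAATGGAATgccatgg
The whole region, chr20:31057501-31076300, held 2032 copies of GGAAT in 18800 bases.

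Covered length differed widely between libraries of the same condition. Islands covered 6.72 Mb in control replicate 1, 23.1 Mb in control replicate 2, 6.53 Mb in DOX replicate 1 and 13.4 Mb in DOX replicate 2. Control replicate 2 stood apart: its islands had a median width of 1000 bp against 400, 500 and 500 bp, and 1.36% of them were 300 bp or shorter against 27%, 22.9% and 22.0%. Its islands were also thinner, at 12.6 ChIP reads per kb against 20.5, 22.7 and 22.9. The deposited folds and counts gave ChIP depths of 8.50 M and 5.47 M reads for control replicates 1 and 2 and 8.12 M and 9.41 M for DOX replicates 1 and 2. The library that stood apart was therefore the shallowest. The islands held 1.62%, 5.32%, 1.83% and 3.26% of those reads in the same order. The median island held 8 to 11 ChIP reads over the 4 libraries, and 24.5% to 62.8% of islands had no input read, so single islands carried large counting error.

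Agreement was low for every pair, within and across conditions. The Jaccard index, the share of bases covered in either library that were covered in both, was 0.0543 for the control replicates and 0.0990 for the DOX replicates. Across conditions it was 0.0558 for the replicates numbered 1 and 0.107 for those numbered 2, the highest of the 6 pairs at this filter. At log2 fold above 2 the order changed, with the DOX replicates highest (0.0686), then the replicates numbered 2 (0.0657), and the control replicates (0.0408) above the replicates numbered 1 (0.0332). The crossed pairs gave 0.0644 for control replicate 1 with DOX replicate 2 and 0.0684 for control replicate 2 with DOX replicate 1. Of the islands in control replicate 1, 23.3% were overlapped over more than 25% of their length by control replicate 2, and 10.0% in the reverse direction. The same shares were 30.3% and 14.3% for DOX replicates 1 and 2. Of the 41164.5 kb covered by any library, 83.4% lay under islands of 1 library, 12.8% of 2, 3.17% of 3 and 0.611% (251.7 kb) of all 4.

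**Figure D1:**
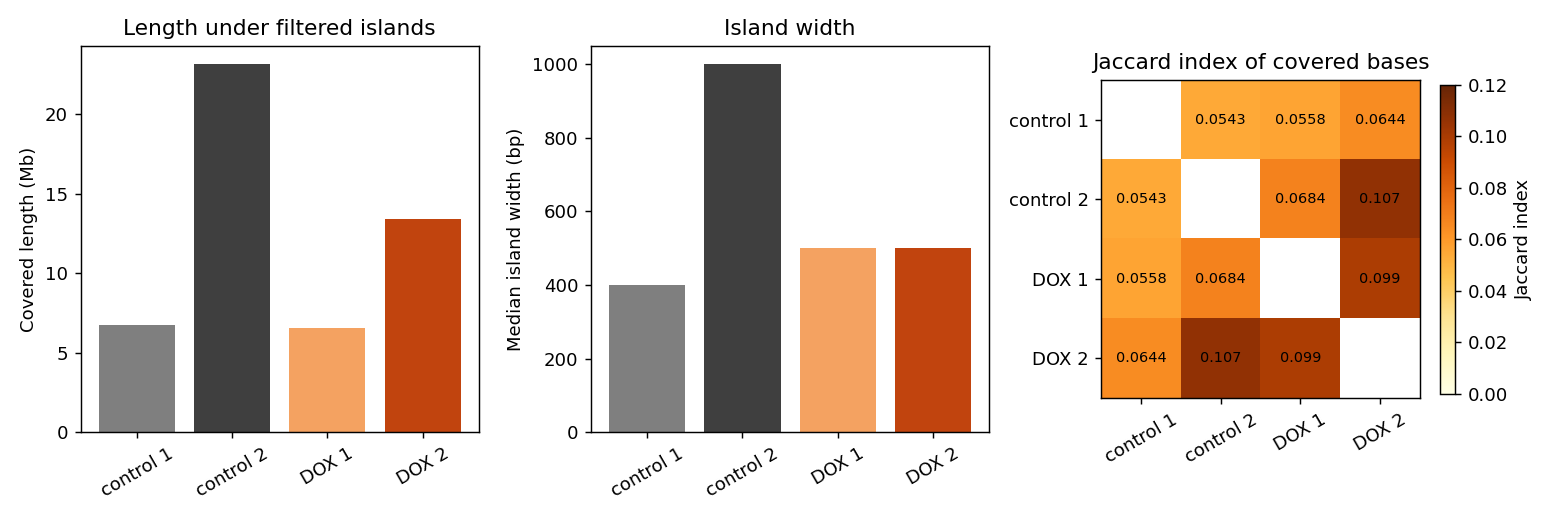
Covered length in Mb (left), median island width in bp (middle) and Jaccard index of covered bases for each pair (right) for the 4 H3K9me3 libraries, 1 value per library or pair. Control replicate 2 has 23.1 Mb and a 1000 bp median, and the Jaccard index runs from 0.0543 to 0.107, its highest value joining the replicates numbered 2 at log2 fold above 1 (at above 2, the DOX replicates).

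Joined into 53616 regions, the islands gave 43197 regions seen in 1 library, 6729 in 2, 2510 in 3 and 1180 in 4. The regions seen in 4 libraries were wider, with a median of 2200 bp against 500 bp for those seen in 1, and held 15.2% of all island reads although they were 2.20% of regions. Part of this follows from the joining, since a region joined from islands of more libraries is wider and sums more reads. Over these 1180 regions, the Spearman correlation of counts was 0.412 between the control replicates, 0.543 between the DOX replicates and 0.407 to 0.613 across conditions. All pairs share the region widths, and reads per covered base correlated at 0.145 to 0.313.

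Islands were spread unevenly over chromosomes, in nearly the same order in every library. The share of covered bases divided by the share of the genome without gaps was 1.95 to 3.802 on chromosome 19, 2.31 to 3.82 on chromosome 8, 2.03 to 2.37 on chromosome 6, 1.76 to 1.87 on chromosome 7 and 1.65 to 1.72 on chromosome 12. It was 0.140 to 0.284 on chromosome 10, 0.144 to 0.320 on chromosome 11, 0.0308 to 0.146 on chromosome 13 and 0.0151 to 0.0245 on chromosome X. On chromosome 19 the values were 1.95 and 3.802 in control and 2.49 and 2.86 in DOX, so both DOX libraries lay between the controls. On chromosome 8 they were 3.82 and 2.31 in control and 3.37 and 2.95 in DOX, again inside the control range. Across 23 chromosomes, without chromosome Y, the Spearman correlation of the ratios was 0.973 to 0.995 over the 6 pairs of libraries, as a description of libraries that share one genome and, within a condition, one input.

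Input reads were correlated with this order, with chromosome 19 in DOX as an exception. Under the deposited islands of 4 other marks, input reads per kb relative to all chromosomes were 1.10 in control and 1.22 in DOX on chromosome 8, 1.06 and 1.19 on chromosome 6, 0.515 and 0.583 on chromosome 13, and 0.501 and 0.558 on chromosome X. On chromosome 19 the input ratio was 1.08 in control and 0.844 in DOX, below the mean in DOX while islands were at 2.49 and 2.86. The Spearman correlation of this input ratio with the island ratio over the 23 chromosomes was 0.754 and 0.783 in control and 0.850 and 0.871 in DOX. The other marks shared the low chromosomes: over 4 libraries each, the chromosome X ratio was 0.135 to 0.155 for H3K36me3, 0.171 to 0.200 for H3K27ac, 0.0765 to 0.117 for H3K4me1 and 0.00545 to 0.0166 for H2AK119ub. The part of chromosome copy number in these ratios was not tested.

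**Figure D2:**
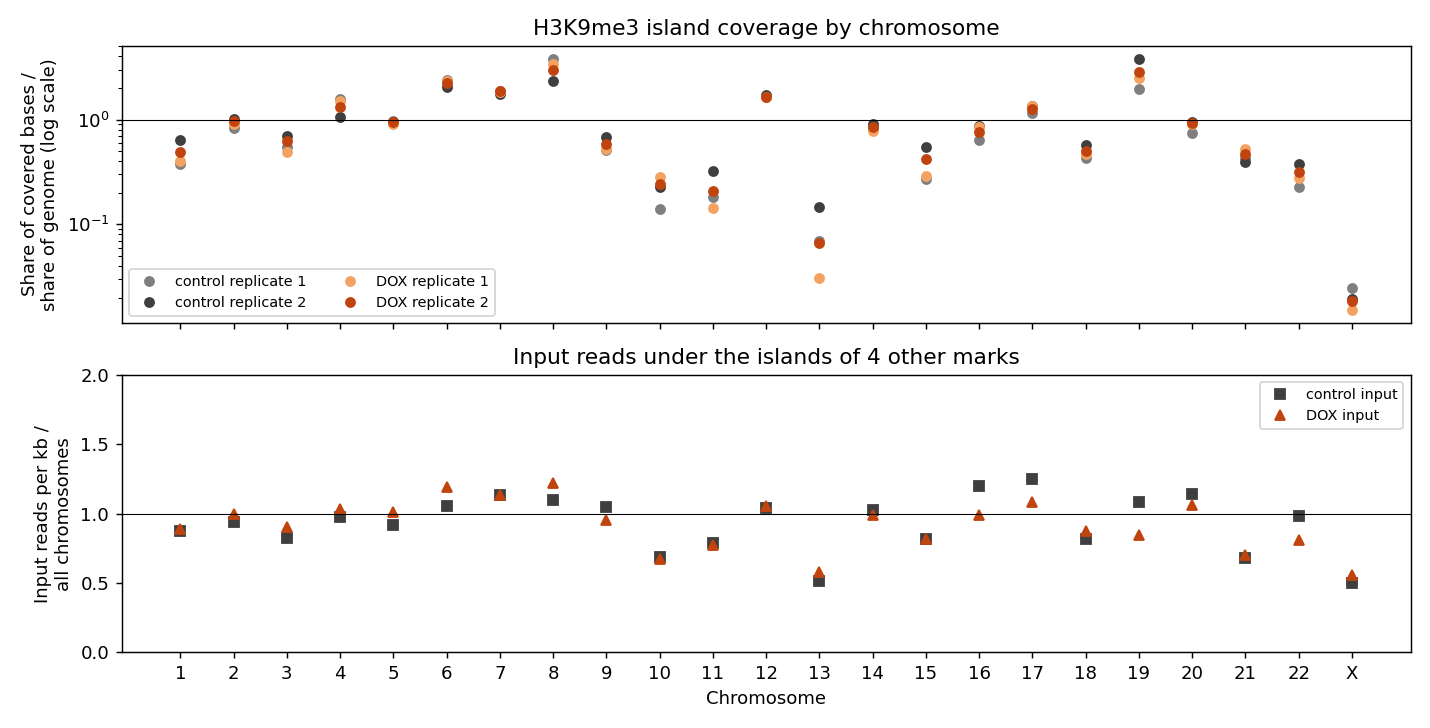
Top, share of covered bases over share of the genome for chromosomes 1 to 22 and X on a log scale, 1 point per library; bottom, input reads per kb relative to all chromosomes, 1 point per condition. Chromosomes 8 and 19 are above 1.9 in every library, chromosome X is below 0.03 in all 4, and of these 23 chromosomes input is lowest on 13 and X.

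Most covered bases were intronic or intergenic, close to the shares of the genome. Intergenic sequence made up 44.1% and 38.5% of covered bases in control and 44.2% and 42.6% in DOX, against 38.8% of the genome. Introns of protein-coding genes made up 34.0% and 38.9% in control and 35.4% and 36.1% in DOX, against 39.3%. Promoters, taken as 1500 bp on either side of a start site, were scarce, with 0.818%, 1.72%, 0.784% and 0.737% of covered bases in the 4 libraries against 1.92% of the genome.

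The bases that recurred had a different content. Exons of protein-coding genes were 3.99% of the genome and 3.16% of bases covered in 1 library, but 6.65%, 10.6% and 16.2% of bases covered in 2, 3 and 4 libraries. Zinc finger genes outside chromosome 19, 305 genes over 0.496% of the genome, held 1.895%, 5.38%, 10.8% and 20.2% of bases covered in 1, 2, 3 and 4 libraries. The 264 zinc finger genes of chromosome 19, over 0.275% of the genome, held 2.88%, 6.22%, 8.25% and 5.76%. Without control replicate 2, the bases common to the other 3 libraries (373.0 kb) were 13.3% exonic, 16.5% in zinc finger genes elsewhere and 4.69% in those of chromosome 19.

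The sequence followed the same order. The 14-base linker consensus, searched on both strands, was in 0.185% of all 1 kb windows of the genome. It was in 0.170% of windows without an island, and in 0.638%, 2.83%, 8.01% and 13.2% of windows with islands over at least 500 bp in 1, 2, 3 and 4 libraries. The satellite motif, 2 adjoining copies of GGAAT on either strand and counted separately, was in 0.480% of all windows and in 0.460%, 1.38%, 5.23%, 4.04% and 5.97% of windows with 0 to 4 libraries. GC content was nearly flat, at 42.5% for 1 library and 42.0% for 4, against 40.9% of all windows. Only 318 windows were in the last class.

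**Figure D3:**
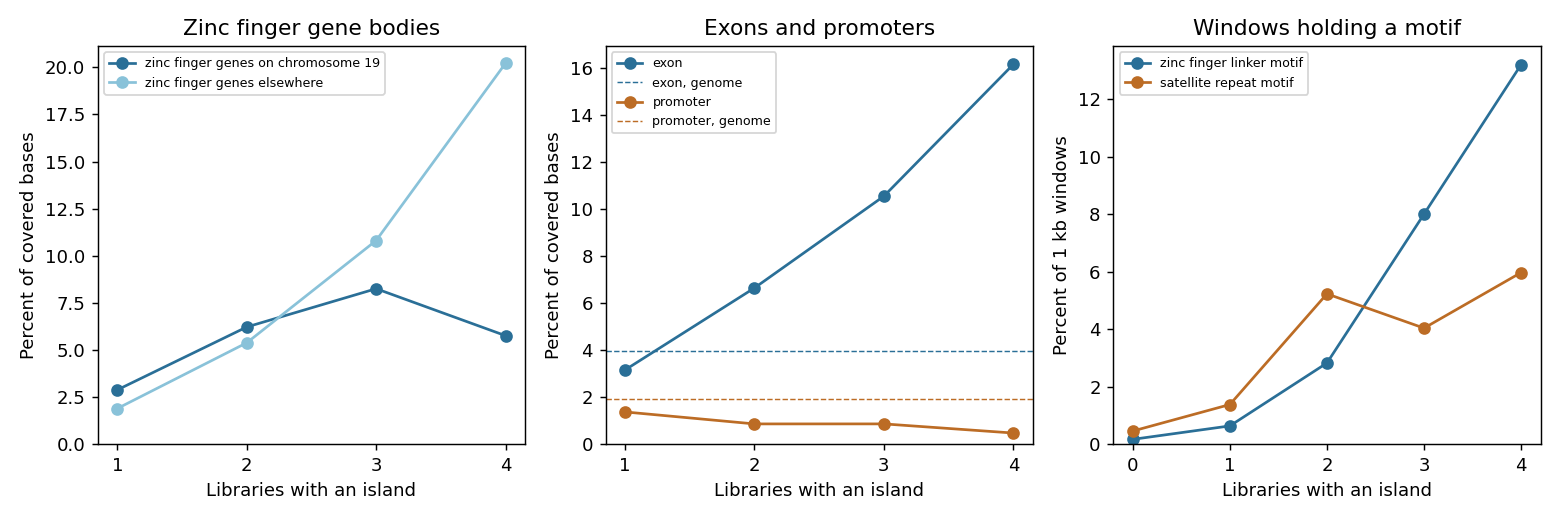
Percent of covered bases in zinc finger gene bodies (left) and in exons and promoters (middle, dashed lines for the genome), and percent of 1 kb windows holding each motif (right), by the number of libraries with an island. Exons rise from 3.16% to 16.2%, zinc finger genes outside chromosome 19 from 1.895% to 20.2%, and the linker motif from 0.170% to 13.2% of windows.

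Zinc finger genes led every gene class that was counted in the share of genes with an island in all 4 libraries. Of the 264 on chromosome 19, 116 (43.9%) had an island in all 4 libraries, and of the 305 elsewhere 90 (29.5%), against 1218 of 20033 protein-coding genes (6.08%). Leaving out control replicate 2 gave 118, 92 and 1303. The covered share of the chromosome 19 genes was 2.11% and 13.5% in control and 2.75% and 6.65% in DOX. For those elsewhere it was 1.69% and 5.18% in control and 2.12% and 3.67% in DOX. In both classes the DOX libraries lay between the control libraries.

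Within zinc finger genes, islands lay toward the 3′ end. On chromosome 19, the gene body was divided into 10 equal parts, and the covered share of the part nearest the 5′ end was 0.589% and 5.16% in control and 0.701% and 2.08% in DOX. In part 9 it was 4.35% and 24.8% in control and 5.96% and 15.8% in DOX. The last coding exon, which holds the zinc finger array, was 5.19% of these gene bodies. It held 27% and 16.1% of their covered bases in control, 24.7% and 22.3% in DOX, and 40.7% of the bases covered in all 4 libraries. Elsewhere in the genome this exon was 2.58% of zinc finger gene bodies and 39.5% of their 4-library bases. Other protein-coding genes had no such slope: in DOX replicate 2 part 1 was 0.220% covered and part 9 was 0.257%.

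**Figure D4:**
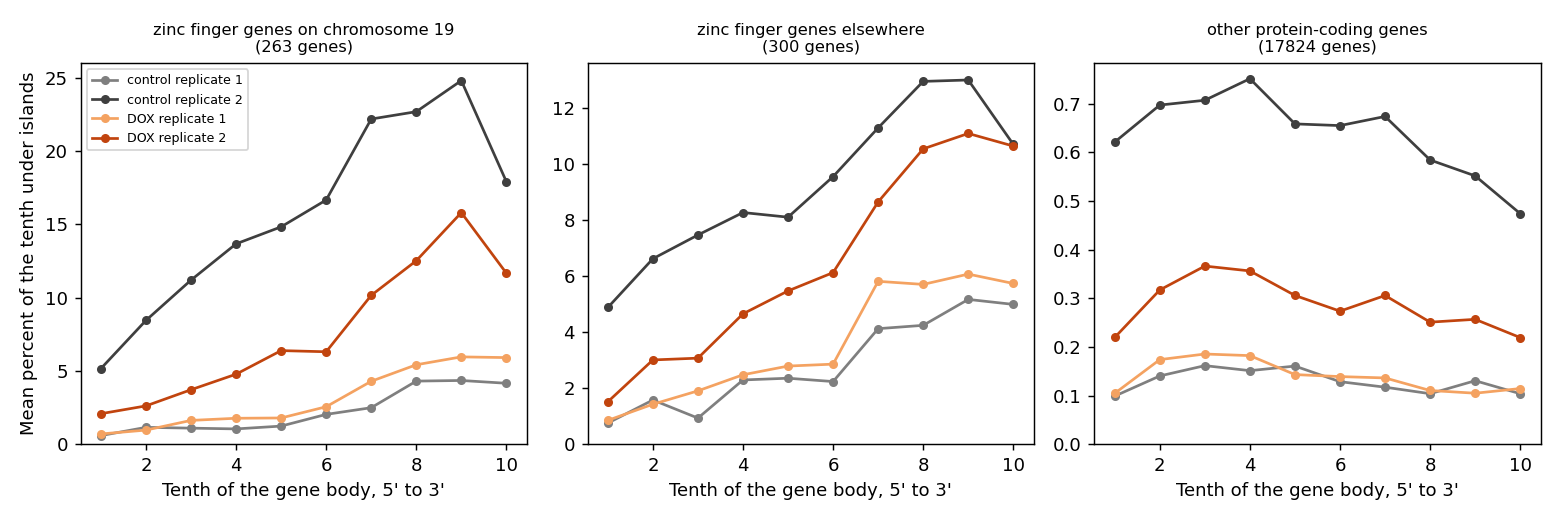
Mean percent of each of 10 equal parts of the gene body under islands, from the 5′ to the 3′ end, for genes of at least 3000 bp in 3 classes, 1 line per library. In zinc finger genes of chromosome 19 every line is higher in part 9 (4.35% to 24.8%) than in part 1 (0.589% to 5.16%), and each panel has its own scale.

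The zinc finger clusters were not marked alike. The 5-gene cluster from ZNF595 to ZNF721 at the end of chromosome 4 (chr4:53286-499156) was covered over 16.6% and 43.3% of its length in control and 21.1% and 34.3% in DOX, and held 8.15% of all bases covered in 4 libraries. The 7-gene cluster from ZNF605 to ZNF268 on chromosome 12 (chr12:132918306-133214832) was covered over 11.7% and 43.2% in control and 15.8% and 26.4% in DOX. On chromosome 19, the 29 genes from ZNF565 to ZNF573 (chr19:36182276-37817300) were covered over 4.08% and 21.4% in control and 5.14% and 11.02% in DOX. The 26 genes from ZNF653 to ZNF791 (chr19:11483427-12640098) reached 2.90% and 21.7% in control and 4.38% and 10.0% in DOX. The 70-gene cluster from ZNF628 to ZNF446 (chr19:55476617-58481230) had only 0.582% and 6.76% in control and 0.742% and 2.10% in DOX. The 37 genes from ZNF101 to ZNF254 (chr19:19668796-24129968) shared no base covered in 4 libraries. A cluster of 5 on chromosome X, from ZNF157 to ZNF630, was at 0% to 0.171%, where the whole chromosome was covered over 0.00336% to 0.0154%.

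Single zinc finger genes were covered over large parts of their length. ZNF594 (chr17:5179535-5191868) had the highest mean coverage, 26.8% and 93.0% in control and 45.1% and 59.2% in DOX. ZNF184 (chr6:27450743-27473118), whose zinc finger exon is printed above, was covered over 28.9% and 61.2% in control and 45.8% and 59.0% in DOX. ZNF721 (chr4:425815-499156) was covered over 25.6% and 66.5% in control and 36.4% and 59.7% in DOX. For all 3 genes both DOX values lay between the control values. On chromosome 19, ZNF134 (chr19:57614233-57624724) led with 20.0% and 70.5% in control and 21.9% and 51.7% in DOX, followed by ZNF844 (chr19:12064731-12081565) with 19.01% and 70.7% in control and 35.0% and 37.4% in DOX. ZNF300 (chr5:150894392-150904983) was covered over 20.8% and 42.6% in control and 42.5% and 69.9% in DOX, with 1 DOX library above both controls. Reads of near-identical zinc finger copies may be shared between genes. Reads were aligned with bwa-mem at its default settings, and a filter on mapping quality is not given in the sources used here.

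The 3 genes with a symbol outside the zinc finger pattern that were most covered reached a mean of 20.6% to 28.6%. RBAK (chr7:5045821-5069487), a KRAB zinc finger gene named for its binding to the retinoblastoma protein, was covered over 11.8% and 35.9% in control and 10.1% and 24.5% in DOX. COMMD5 (chr8:144841042-144853736), of the COMMD family of endosomal trafficking proteins, lies inside the chromosome 8 cluster from ZNF251 to ZNF16 and was covered over 16.2% and 39.9% in control and 22.5% and 35.9% in DOX. RBM12B (chr8:93728155-93741017), an RNA-binding protein gene, was covered over 12.4% and 25.7% in control and 22.5% and 21.8% in DOX.

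Other gene families had few islands, beside 14637 of all 20033 protein-coding genes (73.1%) without one. Gene length was not matched in these counts. None of the 39 HOX genes, which encode body-axis transcription factors, had an island in any library. Of 416 olfactory receptor genes 390 had none and 0 had one in all 4 libraries. OR2T1 had 33 and 32 reads in control and 27 and 0 in DOX. Of 55 histone genes on chromosome 6, 47 (85.5%) had none and 0 had one in all 4 libraries. Among 71 cancer-testis genes MAGEB16 alone had an island, of 9 reads in control replicate 2. MAGEB16 and the CT45A members of this class lie on chromosome X. Covered bases there were at 0.015 to 0.025 of the genome share, so the low count cannot be assigned to the class. Of 149 keratin genes KRT9 and KRT86 had one each, also of 9 reads in control replicate 2. Of 79 ribosomal protein genes, 78 had none, and RPL37A had islands in 4 libraries with 9, 18, 6 and 22 reads over a gene model of 80 kb that includes long introns.

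Clustered protocadherin and imprinted genes lacked an island less often than those families. Of 53 clustered protocadherin genes, which encode neuronal adhesion proteins, 17 had an island in 3 libraries and 0 in 4, against 988 and 1218 of all 20033 genes. Without an island in any library were 18 (34.0%), against 44.3% of zinc finger genes outside chromosome 19. Gene bodies of the gamma cluster are nested and share islands, and no base of the class was covered in 3 libraries. PCDHGA3, whose body overlaps those of its neighbours in the gamma cluster, had 14 and 188 reads in control and 0 and 30 in DOX, so the level rested on control replicate 2. Of 22 imprinted genes, 13 (59.1%) had no island in any library and 2 (9.09%) had one in all 4. Among them, PLAGL1 (chr6:143940300-144064599), a growth-suppressing zinc finger gene, had 98 and 129 reads in control and 76 and 67 in DOX. PEG10, a paternally expressed gene derived from a retrotransposon, had 0 and 25 reads in control and 10 and 13 in DOX. SGCE, its neighbour and a sarcoglycan gene, had 7 and 61 in control and 20 and 48 in DOX. The endogenous DPPA2 and DPPA4 genes on chromosome 3, which are not the induced transgenes, had 0 filtered islands in all 4 libraries. Below the fold limit, DOX replicate 1 had 1 island in DPPA2, of 200 bp and 7 reads. Islands cannot show the transgene cDNAs, so induction was not checked from these libraries.

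H3K36me3, the mark of elongating transcription, covered a larger share of H3K9me3 bases than of the genome, though a minority of them outside zinc finger genes. Of H3K9me3 bases within chromosome 19 zinc finger genes, 55.6% and 50.3% in control and 66.1% and 63.1% in DOX were also under an H3K36me3 island of the same condition and number, against 17.4%, 21.3%, 23.3% and 25.2% of all bases of those genes. Over the genome the overlap was 9.32% and 11.01% in control and 14.1% and 12.99% in DOX, against 3.36% to 4.39% of the genome under H3K36me3. Of the bases covered by H3K9me3 in 4 libraries, 33.4% to 36.1% were under H3K36me3 and 0.477% to 1.87% under H3K27ac, a mark of active promoters and enhancers. In NCI-H661, a second lung cancer line, 12.3% of the 318 windows marked in all 4 NCI-H1299 libraries were marked in both H3K9me3 libraries, against 1.13% of all windows.

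Covered length did not differ between DOX and control beyond the spread between replicates. The mean log2 covered length differed by -0.41 (DOX minus control, n = 2 and 2, exact permutation test, two-sided, p = 0.667, where the smallest p that 4 libraries allow is 0.333). Within the number 1 pair the difference was -0.04 and within the number 2 pair -0.79. Between replicates of a condition the log2 difference was 1.78 in control and 1.04 in DOX. Without control replicate 2 the difference turned to 0.48. In such bulk libraries, fewer cells with the mark and less of the mark per cell cannot be told apart.

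No region passed the test of DOX against control. Of 68 regions that islands covered over at least 50% in every library, 0 were called (0%) by edgeR's quasi-likelihood test with the replicate number as a block, at an adjusted p under 0.05 with a log2 change of 0.5 or more in either direction. At an unadjusted p under 0.05 there were 5 (7.35%), of which 3 were higher and 2 lower in DOX. DESeq2 with the same block called 4, of which 3 were higher. Without control replicate 1, edgeR called 2 of 432 regions, one near NEU4 and one over ZNF718. The median log2 change was 0.02 (quartiles -0.13 and 0.17) on the TMM scale, with a median SE of 0.20. Setting library sizes to the recovered depth moved the median by more than 0.1, to -0.14 for regions and -0.28 for genes, so signs are relative to the other islands and not absolute. Only islands wide enough in every library could be tested, so a change that removed an island was outside this test.

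The regions with the lowest p values included both zinc finger genes of the chromosome 4 cluster that are printed above. Over ZNF141 (chr4:369901-378700) the ChIP counts were 117 and 108 in control and 174 and 252 in DOX. The log2 change was 0.70 (SE 0.14, edgeR, adjusted p = 0.389). Over ZNF721 (chr4:439401-445900) the counts were 92 and 107 in control and 157 and 203 in DOX, with a log2 change of 0.64 (SE 0.16, edgeR, adjusted p = 0.389). In both regions each DOX library was above each control library in counts as deposited, and DESeq2 gave adjusted p values of 2.16e-06 and 7.90e-05. Per covered length the log2 changes were smaller, 0.20 for ZNF141 and 0.17 for ZNF721, and neither passed, since the islands were also wider in DOX. In the interval chr6:170589601-170592300, 4908 bp from PDCD2, counts were 42 and 32 in control and 71 and 82 in DOX (log2 change 0.85, SE 0.21, edgeR, adjusted p = 0.389). Per covered length this last value was -0.03, since its islands were wider in DOX. CEP85L, a centrosomal protein gene, and MUC22, a mucin gene, followed at 0.54 and 0.52 (edgeR, adjusted p = 0.673 for both), or -0.16 and 0.20 per covered length.

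Fewer reads in DOX were seen in a subtelomeric interval of chromosome 2. At chr2:241825801-241828500, 8387 bp from the sialidase gene NEU4, counts were 51 and 60 in control and 30 and 29 in DOX, with a log2 change of -1.11 (SE 0.28, edgeR, adjusted p = 0.389; DESeq2, adjusted p = 1.70e-05). Its control islands spanned 2100 bp in replicate 1 and 2500 bp in replicate 2, its DOX islands 1400 bp and 1500 bp, and per covered length the log2 change was -0.52 and did not pass. Over SMOC2 (chr6:168659101-168660300), which encodes a secreted matrix protein, counts were 30 and 25 in control and 19 and 22 in DOX (log2 change -0.62, SE 0.19, edgeR, adjusted p = 0.548). PTPRN2, a secretory granule protein gene, had 17 and 12 in control and 11 and 9 in DOX, with a log2 change of -0.70 (SE 0.16, edgeR, adjusted p = 0.673). The intergenic interval chr8:57212901-57213500 was at -0.78 and the satellite chrY:11291501-11300700 at -0.23 (edgeR, adjusted p = 0.673 for both). Per covered length SMOC2 was at -0.30, PTPRN2 at -0.41, the chromosome 8 interval at -0.35 and the chromosome Y satellite at -0.0.

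Other regions with the most reads were partly outside the test. ZNF184, ZNF850, ZNF700 and the interval chr8:46496501-46508100 were covered over less than 50% in at least 1 library and were not tested. The MIR1299, ZKSCAN5 and chromosome Y regions were tested and not called. ZNF184 (chr6:27448001-27463200) had 187 and 238 counts in control and 285 and 387 in DOX, with both DOX counts above both controls. An intergenic region around MIR1299 (chr9:40921901-40931600) had 156 and 206 in control and 184 and 239 in DOX, so its ranges overlapped. ZNF850 (chr19:36743801-36757300) had 78 and 213 in control and 180 and 240 in DOX. ZNF700 (chr19:11939901-11953700) had 61 and 247 in control and 104 and 263 in DOX. ZKSCAN5 (chr7:99527601-99534900) had 112 and 164 in control and 120 and 222 in DOX, and the chromosome Y satellite 296 and 312 in control and 243 and 360 in DOX. In these last 4 regions the ranges of the conditions overlapped. Among the 5 widest regions was also chr8:46496501-46508100, with 90 and 80 counts in control and 99 and 231 in DOX.

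Over gene bodies, 0 of 1218 genes with an island in all 4 libraries were called (0%) by edgeR, and DESeq2 also called 0. At an unadjusted p under 0.05 there were 64 (5.25%), 34 higher and 30 lower. The median log2 change was 0.01 (quartiles -0.43 and 0.44, median SE 0.74), so a change had to be large to stand out. Among the 116 zinc finger genes of chromosome 19 tested, 1 was higher and 2 lower at an unadjusted p under 0.05 (2.59%), with a median log2 change of 0.01 and 58 genes on either side of 0. Among the 90 elsewhere, 5 were higher and 3 lower (8.89%), with a median of 0.16 and 55 genes above 0. These shares stand beside 5.25% and a median of 0.01 over all genes tested.

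Apart from ENSG00000258677 and ZNF16, the named genes with the lowest p values had few reads in at least 1 library. JAKMIP1, which encodes a microtubule-associated protein, had 26 and 126 reads in control and 8 and 8 in DOX (log2 change -2.95, SE 0.93, edgeR, adjusted p = 0.892). BICD1, a dynein adaptor gene, had 69 and 88 in control and 25 and 15 in DOX (log2 change -2.08, SE 0.74, edgeR, adjusted p = 0.892). For ZNF875 the control islands spanned 1100 bp in replicate 1 and 8800 bp in replicate 2, against 400 bp in each DOX library. CLASP2, a microtubule plus-end protein gene, had 27 and 66 reads in control and 9 and 9 in DOX, and DNER, a Notch ligand gene, 18 and 36 in control and 7 and 8 in DOX. In these 5 genes both DOX libraries were below both controls. In the other direction, ZNF43 had 7 and 76 reads in control and 60 and 144 in DOX (log2 change 1.76, SE 0.69, edgeR, adjusted p = 0.892), with overlapping ranges. AGFG1 had 9 and 26 in control and 60 and 82 in DOX, ZNF16 30 and 132 in control and 134 and 204 in DOX, PRB2, a salivary protein gene, 8 and 2 in control and 8 and 23 in DOX, and ENSG00000258677, a gene without a symbol on chromosome 8, 48 and 54 in control and 124 and 175 in DOX. Per covered length, 7 of these 10 genes changed sign. Without control replicate 1, where the lone control is assumed to vary like the DOX pair, edgeR called 4 of 1604 genes (JAKMIP1, ZNF875, CNTNAP2 and SNTG1), and without control replicate 2 it called 2 of 1303 (ZNF3 and NKAIN3).

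Of 53616 regions, 6729 were seen in 2 libraries. Of these, 1181 were in both DOX libraries and 945 in both controls, and the others in 1 control and 1 DOX library. At log2 fold above 2 the counts for both DOX and both controls were 1115 and 657. In bases, the DOX pair alone shared 780.6 kb and the control pair alone 746.0 kb. Pairs of 1 control and 1 DOX library alone shared 185.2 to 2248.2 kb. The labels gained (both DOX) and lost (both controls) below name these patterns only. Of the gained regions, 62 (5.25%) lay in a zinc finger gene, and of the lost regions 56 (5.93%). Both were close to the 6.49% of all regions seen in 2 libraries. The share was 17.5% of regions seen in all 4 libraries and 3.12% of those seen in 1. Without control replicate 2 the count of gained regions was 2266. Leaving out a control can only raise this count, so the rise does not show how far it depended on that library. The lost regions with the most reads were over ZNF383 on chromosome 19 (chr19:37226601-37230000), with 21 and 48 reads, in CNBD1 on chromosome 8, with 26 and 32, and over ZNF391 on chromosome 6, with 26 and 31. They were chosen after their values were seen, by their summed counts.

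The 5 gained regions with the most reads, chosen in the same way, were all satellite arrays, and 4 of them had control islands that fell under the fold limit. The chromosome 20 array printed above had 2215 and 1721 ChIP reads in the control lists and 2110 and 2752 in the DOX lists before the fold filter. Its ChIP reads per kb were 41.2 and 49.4 times the genome mean in control and 42.2 and 45.7 times in DOX. Its input was 29.6 and 29.4 times the mean in control and 14.3 and 13.8 times in DOX. The log2 fold over input was 0.48 and 0.75 in control, under the limit of 1, and 1.56 and 1.73 in DOX. Arrays on chromosome 10 (chr10:41906101-41916300), chromosome 4 (chr4:49102201-49108900) and chromosome 2 (chr2:89826101-89835700) had log2 folds of 0.37 to 0.67 in control and 1.32 to 1.75 in DOX, with input at 13.4 to 21.6 times the mean in control and 6.59 to 8.90 times in DOX. The last array, chr2:90394001-90401300, had no deposited control island, and before the filter 981 and 1104 reads in DOX, at log2 folds of 1.12 and 1.09. Each condition had 1 input for both replicates, so input and condition cannot be told apart here. Of all 1181 gained regions, 193 held a deposited control island below the filter, and of the 945 lost regions 79 held such a DOX island.

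**Figure D5:**
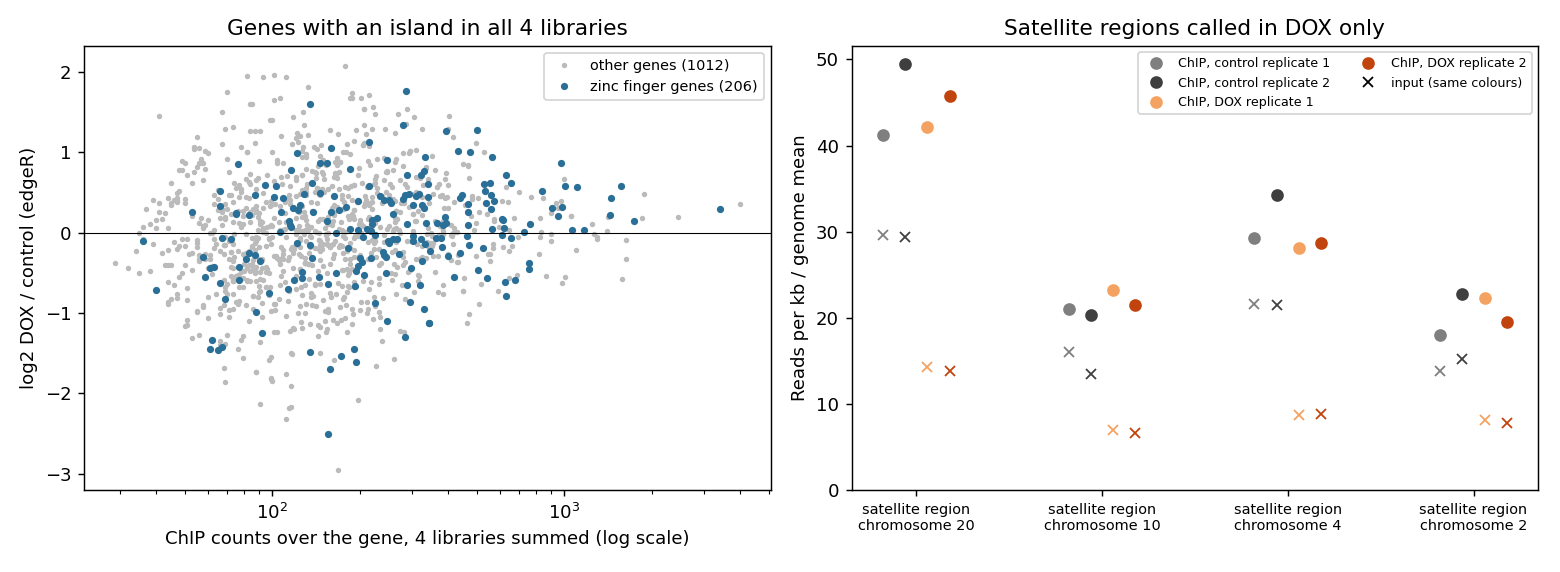
Left, log2 DOX over control for 1218 genes with an island in all 4 libraries against summed ChIP counts (log scale), with 206 zinc finger genes in blue; right, ChIP (circles) and input (crosses) reads per kb over the genome mean at 4 satellite regions called in both DOX libraries only. No gene is called, and at the chromosome 20 array ChIP is 41.2 to 49.4 in every library while input is 29.4 to 29.6 in control and 13.8 to 14.3 in DOX.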

How the data were processed

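H3K9me3 ChIP-seq of NCI-H1299 was single-end, with 1 input per condition. For ChIPs after a treatment, the study's methods add cross-linked E14 mouse cells as a reference for global changes. Mouse and human reads were then separated with XenofilteR. Only islands on the human genome were used here, so that reference did not enter any value. Per the labels and the study's methods, the authors trimmed reads (Trim Galore 0.6.6), aligned them to hg38 (GRCh38.p13; BWA 0.7.13, SAMtools 1.9), marked duplicates (Picard 2.6.0) and called islands per replicate with EPIC2 0.0.52 (bins of 100 bp, 1 gap allowed, 147 bp fragments); the processing notes also name deepTools 3.5.0 and MACS2. The deposited lists give whole ChIP and input counts per island, a p-value with its FDR, and a log2 fold over input scaled to depth. Coordinates are given 1-based, on that build.

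Islands were kept on standard chromosomes at log2 fold above 1 and FDR under 0.05, as in the study. The ENCODE blacklist the authors removed was not used here, and regions of high input remain. The ratio of ChIP to input depth was recovered from the constant ratio of counts to folds. Islands of 0 input were counted by EPIC2 as at most 0.25 reads. In 100 bp islands of 0 input, this substitute gave an input depth of 1.049 reads per kb in control and 1.533 in DOX. ChIP depth followed from that ratio and this input depth. Genes came from GENCODE 44. The members, gene classes and tests were chosen with earlier results of these data known.

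Island counts were summed per joined region, or shared over gene bodies by overlapping length and rounded, and tested with edgeR 4.0.16 (R 4.3.3; quasi-likelihood, TMM, replicate number as a block, since the study describes complete batches, which leaves 1 residual degree of freedom). Deviations from condition means correlated at 0.115 (1180 regions) and 0.122 (1218 genes) within numbers; with 2 pairs this cannot decide pairing. DESeq2 1.42.0 was an alternative. Standard errors are the log2 change over the root of F. Scripts were tested on simulated data. Counts exist only where an island was called, so a missing island is not missing signal. Alternatives changed normalization, filters, joining, the block and the libraries.

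Named regions were those called (up to 15), otherwise the 5 with the lowest p in each direction, the 8 with the most counts and the 5 widest; named genes followed the same rule, with the 3 to 5 most covered of each class and DPPA2 and DPPA4. Further class members were also named.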

Additional observations from a re-analysis of the deposited data

How the results depend on the processing

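The count of called regions was 0 with and without the replicate block, and 0 with recovered depth, per covered length, at log2 fold above 2, at 80% coverage (2 regions tested) and with islands joined within 1 kb. DESeq2 with the replicate block called 4 regions, and without a coverage minimum 1 of 1180 was called, the satellite interval chr10:41896001-41900600. Leaving out a library without the block gave 0 to 2, the 2 without control replicate 1. The count of called genes was 0 with and without the replicate block, with DESeq2, with recovered depth and at log2 fold above 2. It was 1 per covered length (MUC3A, log2 change 0.65, edgeR, adjusted p = 0.0477) and 0 to 4 when a library was left out, 4 without control replicate 1 and 2 without control replicate 2.

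Per covered length the sign turned for 2 named regions, chr6:170589601-170592300 (-0.031) and CEP85L (-0.16), and for 7 named genes: ZNF43 (-0.33), AGFG1 (-0.27), ZNF16 (-0.24), JAKMIP1 (0.21), BICD1 (0.20), ZNF875 (0.14) and DNER (0.85), all on the log2 scale. No other alternative turned the sign of a named region or gene where it could be fitted. The log2 ratio of covered length ran from -1.31 to 0.48 when a library was left out, above 0 without control replicate 2 (0.48) or DOX replicate 1 (0.11). Regions in both DOX and neither control numbered 2266 without control replicate 2, an alternative chosen after seeing the data that could only raise the count. At log2 fold above 2 the Jaccard index fell to 0.0384 for control replicate 1 with DOX replicate 2, 0.0414 for control replicate 2 with DOX replicate 1, 0.0657 for the replicates numbered 2 and 0.0686 for the DOX replicates. Counts of 8 to 11 reads per median island, and 1 residual degree of freedom, limited what a test could find.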

Other observations

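Over all deposited islands that touch a 1 kb window with 2 adjoining copies of GGAAT on either strand, before the fold filter, the ChIP reads per kb were 14.98 and 14.6 times the genome mean in control and 21.0 and 16.8 times in DOX. The input reads per kb were 8.38 and 7.75 times the mean in control and 8.39 and 6.31 times in DOX. The log2 fold over input was 0.84 and 0.91 in control and 1.33 and 1.41 in DOX, so both DOX libraries were higher. The filter kept 317 of 414 and 381 of 485 such islands in control and 455 of 514 and 631 of 694 in DOX. These values were not tested, since each condition had 1 input.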
